A study of Mus musculus with 6 samples.

Results

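The autophagy genes Ulk1, Ulk2, Rb1cc1, Becn1, Atg3, Atg5, Atg7, Atg12, Map1lc3a and Map1lc3b were examined for peaks of the transcription factor E2F1 in chromatin immunoprecipitation followed by sequencing (ChIP-seq). These 10 genes were picked by symbol, with earlier results of these data known, out of 21896 protein-coding genes with a position in the RefSeq table of GRCm38. A peak was assigned to a gene when any of its bases lay inside the gene's span or within 1000 bp of it. The cells were NIH/3T3, an established line of mouse embryonic fibroblasts, and carried either an E2F1 construct inducible by doxycycline or an empty-vector (EV) counterpart. Cells of both kinds, E2F1 and EV, were kept in low serum for 48 hours, which brings them to a resting state, and then received doxycycline for 12 hours, so that, by their labels, starvation and doxycycline were common to all libraries and the groups differed in the construct. The doxycycline dose is left out because the sources used here give different values for it. The extraction protocol in the labels describes RNA libraries, and the antibody is not given in the sources used here. The comparison asks which sites are occupied when E2F1 is induced in resting cells. Each group had 2 libraries with a peak list apiece. The labels do not say whether these came from separate cultures, so the spread between them may be technical. The mRNA of these genes was not analysed here.

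Autophagy encloses part of the cytoplasm in a double membrane, the autophagosome, and delivers it to the lysosome for breakdown. A kinase complex of ULK1 or ULK2 with the scaffold RB1CC1 (FIP200) starts the process, and a lipid kinase complex that contains Beclin 1 marks the membrane. A ubiquitin-like system, in which ATG7 is the activating enzyme and ATG3 a conjugating enzyme, then joins ATG12 to ATG5 and attaches LC3 proteins, the products of Map1lc3a and Map1lc3b, to the growing membrane. Starvation is a classical trigger of autophagy, and E2F1 is best known as an activator of genes for entry into S phase.

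The lists held 7836 and 8027 peaks in E2F1 replicates 1 and 2, and 70 and 358 in EV replicates 1 and 2. Numbers in the peak names ran up to 10591, 9635, 165 and 1612 in the same order. A larger share of these numbers was thus absent from the EV lists than from the E2F1 lists. Whether any absent number stood for a site at an autophagy gene cannot be told from the lists. The genome-wide background of a list, recovered from the deposited statistics and the only measure of depth used here, was 1.85, 1.86, 2.20 and 1.18 reads in the same order. No peak in these lists had a −log10 p of 10 or less, so weaker sites are missing from them, and a gene without a peak is not a gene without signal. At that threshold and at the genome-wide background, a site needed at least 16 reads at its summit in each E2F1 list, 17 in EV replicate 1 and 13 in EV replicate 2.

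Of the 10 autophagy genes, 9 had an E2F1 peak in both E2F1 lists and none had a peak in either EV list. The gene without a peak was Becn1. The 9 genes were the same in both E2F1 lists, each had exactly 1 peak per list, and the paired peaks overlapped at every gene. Among all protein-coding genes, 34.4% had a consensus peak, meaning overlapping peaks of both E2F1 lists, and 36.9% and 38.2% had a peak in E2F1 replicates 1 and 2. In the EV lists these shares were 0.0365% and 0.406%, so the 0 of 10 among the autophagy genes lay near the background there. The autophagy genes were not a random sample of genes, so their 9 of 10 stands beside the 34.4% as a description, with no test. The members had longer spans than protein-coding genes in general, with a median of 27671 bp against 17149 bp. Of the 18680 protein-coding genes with a span in the range of the members (1710 to 217478 bp), 37.9% had a consensus peak. The part of span length in this count was not tested.

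Between the groups, 9 genes with a peak in each E2F1 library stood against 0 in each EV library, a difference of 3.32 in log2(number of genes + 1). The groups did not overlap. They did not overlap over all protein-coding genes either. There, 8082 and 8362 of 21896 had a peak in E2F1 replicates 1 and 2, against 8 and 89 in EV replicates 1 and 2. The separation was thus common to the lists and not particular to the members. The exact two-sided permutation test over the 4 libraries gave p = 0.33. No smaller value is possible with 2 libraries in each group, so this design cannot pass 0.05. A listed EV peak would have needed 34 reads in replicate 1 and 25 in replicate 2 if its local background had been as far above the genome-wide level as the highest seen at a member peak, 4.17 times. At the same ratio 31 reads would have been needed in each E2F1 list. That ratio was seen at Ulk2 in E2F1 replicate 1. The weaker sites described below had lower ones, such as 1.67 and 1.28 at Ulk1 in E2F1 replicates 1 and 2. Some were nearer to it in replicate 1, with 3.55 at both Rb1cc1 and Map1lc3b. In replicate 2 the ratios of these genes were 1.25 and 1.74. At the ratio of 4.17, some of these weaker sites would be missing from the lists of either group at the read depth they had in E2F1 cells.

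Peaks at these genes were of modest height with a few high ones. The deposited fold enrichment, a ratio of read pileup to local background at the summit, is the authors' own value and serves here only for description. Peaks were ranked by it inside a list, and genes by its mean over the E2F1 lists, although the medians of these lists differed. In E2F1 replicate 1 the 9 folds ran from 3.84 to 18.8 with a median of 7.59, against a median of 9.19 over all peaks of that list, and 3 of the 9 lay above that list median. In E2F1 replicate 2 they ran from 6.82 to 44.7 with a median of 10.4, against 11.3 for the list, with 4 of 9 above. With the mean of the replicates taken for each gene's strongest consensus peak, the median was 8.54 over the 9 members and 11.8 over the 7537 protein-coding genes with such a peak. If only peaks with a score at or above the median of their own list were counted, 3 of the 10 genes kept a consensus peak, namely Ulk2, Atg12 and Map1lc3a, against 17.1% of all protein-coding genes.

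**Figure D1:**
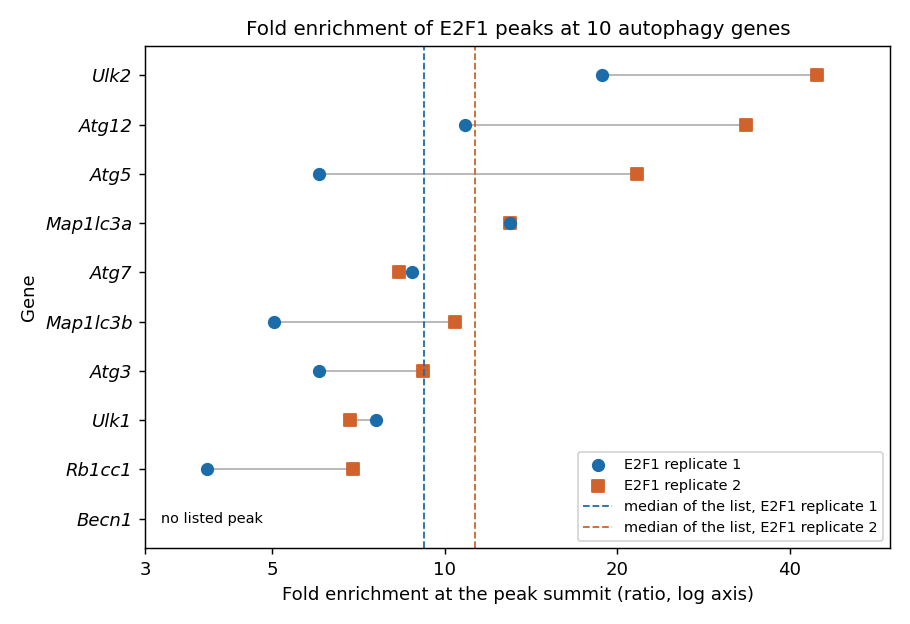
Fold enrichment (horizontal, log axis) of the E2F1 peak at each autophagy gene (vertical, ordered by the mean), with circles for E2F1 replicate 1, squares for E2F1 replicate 2 and dashed lines at the median of each whole list (9.19 and 11.3). Ulk2 was the highest in both lists, Becn1 had no listed peak, and neither EV list had a peak at any of the genes.

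Among the initiating kinases, Ulk2 had the highest peak of all the members. It spanned chr11:61854120-61856047 in E2F1 replicate 1, with a fold of 18.8 that ranked 1040 of 7836, and chr11:61854291-61855567 in E2F1 replicate 2, with a fold of 44.7 that ranked 290 of 8027. It was also the widest, at 1928 and 1277 bp, where the list medians were 938 and 814 bp. By mean fold, 31.7 ± 18.3 (SD, n = 2), Ulk2 was 478th among the 7537 genes with a consensus peak, so 6.33% of them were higher. The other ULK kinase, Ulk1, had a low and reproducible peak, at chr5:110809362-110810122 with a fold of 7.59 and at chr5:110809585-110810155 with a fold of 6.82, ranks 4954 and 6346. The folds of Ulk1 and Ulk2 did not overlap between the lists, and the peak of Ulk2 exceeded that of Ulk1 in each of them. Rb1cc1, which encodes the scaffold of the kinase complex, had the lowest mean fold, 5.38 ± 2.18 (SD, n = 2), with 3.84 at chr1:6214227-6215406 in replicate 1 and 6.92 at chr1:6214333-6215271 in replicate 2. In replicate 1 its −log10 p was 10.0046 where the list begins at 10.0001, and only 16 peaks of the list had a smaller one, so this peak was barely listed.

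Promoter sequence of RefSeq (build GRCm38.p6) was at hand for Ulk1, Ulk2, Atg3, Atg5, Atg7 and Map1lc3b, as windows of 300 bases from 250 before to 50 after an annotated start. The windows of Ulk1, Ulk2, Atg3, Atg5 and Map1lc3b overlapped the E2F1 peak of their gene. Searched on both strands were 4 forms of a 7-letter E2F core. The first was TTCCCGC. A second form in the search was TTGGCGC. Another form searched was TTCGCGC, and the last in the search was TTGCCGC. None was found in these 5 windows. The window of Atg7, which overlapped no consensus E2F1 peak, held TTGGCGC, beginning 3 bases before its annotated start. At least 1 of the 4 was present in 23.1% of all 7393 promoter windows that overlapped a consensus E2F1 peak and in 5.66% of the 25458 that did not. The same cores without their first T, which were added after the data were seen and include every match of the longer ones, were found in 3 of the 5 windows, Ulk1, Ulk2 and Atg3, and in 76.3% and 24.6% of windows with and without a consensus peak. A match of these letters is a description of the window and not a binding site. The 250 bases before the start are shown for the ULK kinases, whose folds differed most within a gene pair, and for Atg3, with every 6-letter match in capitals, 5′ to 3′ on the strand of the gene. They lie at chr11:61855093-61855342 (minus strand) for Ulk2, chr5:110810082-110810331 (minus strand) for Ulk1 and chr16:45158579-45158828 (plus strand) for Atg3.
Ulk2: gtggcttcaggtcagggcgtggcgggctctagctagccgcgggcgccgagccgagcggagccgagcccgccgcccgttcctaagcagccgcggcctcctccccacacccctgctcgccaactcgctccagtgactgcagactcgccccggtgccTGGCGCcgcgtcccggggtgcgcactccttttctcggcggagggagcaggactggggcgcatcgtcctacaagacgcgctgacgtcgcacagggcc
Ulk1: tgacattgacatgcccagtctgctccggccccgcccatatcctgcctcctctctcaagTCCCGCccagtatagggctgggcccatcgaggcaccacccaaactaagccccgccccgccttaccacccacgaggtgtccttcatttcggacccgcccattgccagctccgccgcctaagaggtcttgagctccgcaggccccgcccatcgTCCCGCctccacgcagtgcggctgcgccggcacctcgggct
Atg3: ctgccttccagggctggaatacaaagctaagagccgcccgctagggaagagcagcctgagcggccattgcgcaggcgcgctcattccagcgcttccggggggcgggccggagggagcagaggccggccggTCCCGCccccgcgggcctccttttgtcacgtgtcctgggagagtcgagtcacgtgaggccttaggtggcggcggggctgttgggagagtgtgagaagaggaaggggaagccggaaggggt

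The match in Ulk2 began 96 bases before the start, inside the peak of both lists and 39 and 118 bp from their summits. Of the matches of Ulk1, that at 192 bases before the start lay outside both peaks, and that at 41 bases before it lay inside both, 192 and 256 bp from the summits. The remaining match of Ulk1 followed its start. The match of Atg3, 120 bases before the start, was inside both peaks, 293 bp from the summit in replicate 1 and 32 bp in replicate 2. All 5 windows under a peak were rich in G and C, from 59.3% in Atg5 to 74.7% in Ulk2, against a median of 65.3% in windows with a consensus peak and 50% in windows without. The ratio of observed to expected CpG ranged from 0.72 in Atg3 to 1.08 in Ulk2, against medians of 0.86 and 0.27.

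The lipid kinase complex was represented by Becn1, which encodes Beclin 1. Its span, chr11:101288258-101302286, had no peak within 1000 bp in any of the 4 lists. The nearest listed peak lay 12922 bp from the span in E2F1 replicate 1 and 13422 bp in E2F1 replicate 2, with folds of 9.59 and 10.7, in the span or within 1000 bp of Psme3, a gene for a proteasome activator subunit. The nearest peak of EV replicate 2 was 1461844 bp away.

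All 4 genes of the conjugation machinery had a peak in both E2F1 lists, and they differed in height. Atg12, the ubiquitin-like modifier, had the second highest mean fold of the members, 22.2 ± 16.1 (SD, n = 2), from 10.9 in replicate 1 and 33.6 in replicate 2, ranks 3077 and 632. Its target Atg5 had folds of 6.04 and 21.7, ranks 6264 and 1575, the widest gap between the replicates of any member (3.58 times). Atg7, the activating enzyme of the system, had folds of 8.75 and 8.33 and so hardly differed between the lists. Atg3, which encodes the conjugating enzyme for LC3, had folds of 6.04 and 9.15. In replicates 1 and 2, the Atg12 peak lay at chr18:46741608-46742577 and chr18:46741448-46742451, and that of Atg5 at chr10:44268233-44268760 and chr10:44268039-44268812. The Atg7 peak lay at chr6:114643039-114643845 and chr6:114642864-114643718, and that of Atg3 at chr16:45158147-45159280 and chr16:45158345-45159232. In replicate 1 the order was Atg12, Atg7, Atg5, Atg3, and in replicate 2 it was Atg12, Atg5, Atg3, Atg7. Only the first place was thus common to both. The difference between the means of Atg7 (8.54 ± 0.296) and Atg3 (7.59 ± 2.20) was smaller than the spread of Atg3 between the replicates (SD, n = 2).

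The genes for LC3 both had a peak, and their order depended on the measure. Map1lc3a had nearly identical folds in the lists, 12.974 at chr2:155275892-155276938 and 12.981 at chr2:155276118-155276968. The fold of Map1lc3b was lower in both lists, 5.03 at chr8:121590235-121590818 and 10.4 at chr8:121590225-121590682, and these were among the narrowest peaks of the members, at 584 and 458 bp. In list rank, Map1lc3a stood at 2258 and 3429, and Map1lc3b at 7266 and 4425. The distance between the genes, 12.98 ± 0.00481 against 7.72 ± 3.80 (SD, n = 2), was larger than either spread, though the difference was not tested. By recovered pileup, the reads at the summit before division by local background, Map1lc3a had 47 and 42 reads and Map1lc3b 37 and 43, so Map1lc3a was higher in replicate 1 only.

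Peaks lay near the ends of the genes and not deep inside them, a position common to the lists. Over all protein-coding genes, 31.1% had a consensus peak within 1000 bp of a gene boundary. With the whole span counted it was 34.4%. In absolute distance, summits were between 14 and 412 bp from the nearest end of the span in replicate 1 (median 190 bp) and between 6 and 401 bp in replicate 2 (median 185 bp), and 7 and 5 of the 9 were inside the span. Where RefSeq gave the start under the peak, that end was the start of the gene. The summit was 52 bp before the start of Ulk2 in replicate 1 and 27 bp after it in replicate 2, and 14 and 84 bp before the start of Map1lc3b. At Atg5 it was 200 and 28 bp after the start, and at Ulk1 156 and 220 bp after it. The summits of Atg3 stood 178 bp after the start and 83 bp before it. In Atg7 the peak sat at the first base of the span, 159 bp inside it in replicate 1 and 6 bp outside in replicate 2. The promoter window listed for Atg7, at chr6:114670846-114671145, belongs to another annotated start far downstream of those summits and overlapped no E2F1 peak.

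**Figure D2:**
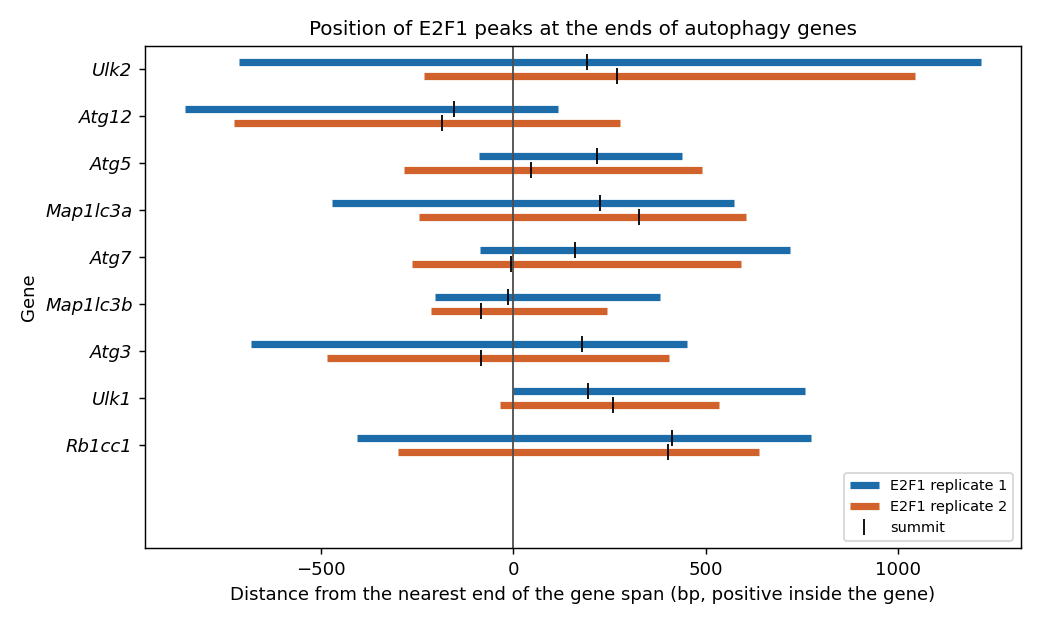
Extent of each E2F1 peak (bars, blue for replicate 1 and orange for replicate 2) and its summit (black tick), as distance in bp from the nearest end of the gene span, positive inside the gene. At the 9 genes all summits lay within 412 bp of an end, and the bars of the replicates overlapped at every gene.

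Some of these peaks also stood at the end of a neighbouring gene, so that the peak cannot be given to the autophagy gene alone. The spans of Atg12 and Ap3s1, a subunit of an adaptor complex for vesicle transport, overlap at their ends, and the Atg12 summits were 185 and 215 bp from the boundary of Ap3s1 and 155 and 185 bp from that of Atg12. The Atg3 summits were 334 and 73 bp from the end of Slc35a5, which encodes a member of the nucleotide sugar transporter family, against 178 and 83 bp from that of Atg3. At Atg5 the neighbour was the long non-coding RNA Gm40637, 337 and 165 bp from the summits at its nearer end, against 217 and 45 bp for Atg5. Ulk1, Ulk2, Rb1cc1, Atg7, Map1lc3a and Map1lc3b had no boundary of another annotated gene within 1000 bp of their peaks.

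The fold of most members was higher in E2F1 replicate 2, and the local background was lower there at every member with a peak. Pileup and local background were recovered from the deposited fold and −log10 p of each peak. The background is thus not a measure independent of the fold, and its part in the fold differences was not tested. At Ulk2 the pileup was 163 reads in replicate 1 and 182 in replicate 2, and the local background was 7.71 and 3.10 reads. At Atg12 the pileups were 81 and 95 reads over backgrounds of 6.56 and 1.86. Map1lc3b had pileups of 37 and 43 reads over 6.56 and 3.23. These 3 genes had folds 2.07 to 3.10 times as high in replicate 2, while their pileups were only 1.12 to 1.17 times as high. At Atg5 both parts moved, with pileups of 40 and 68 reads over backgrounds of 5.79 and 2.19. The fold did not rise at every member. At Ulk1, Atg7 and Map1lc3a it was 0.899, 0.952 and 1.00 times as high in replicate 2. Their backgrounds were 0.769, 0.864 and 0.857 times as high, and their pileups 0.733, 0.857 and 0.894 times.

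Over the 9 members the ratio of replicate 2 to replicate 1 had a median of 1.80 for the fold, 1.00 for the pileup (0.733 to 1.70) and 0.493 for the local background (0.283 to 0.864). The corresponding medians over all consensus peaks were 1.26, 0.997 and 0.756, so lower background in replicate 2 was common to the lists. The local background at the members was 1.25 to 4.17 times the genome-wide level in replicate 1 and 1.00 to 1.74 times in replicate 2. Spearman's rho between the replicates over the 9 genes was 0.58 for fold and 0.81 for pileup, next to 0.70 and 0.86 over all consensus peaks (7006 for fold, 6894 for pileup). These values describe sites that share the same libraries, and the comparison of measures was added after the folds had been seen. By pileup Ulk2 and Atg12 held the first and the second place in both lists. The lowest pileups were 26 reads in replicate 1, at Atg3, and 22 reads in replicate 2, at Ulk1 and Rb1cc1.

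**Figure D3:**
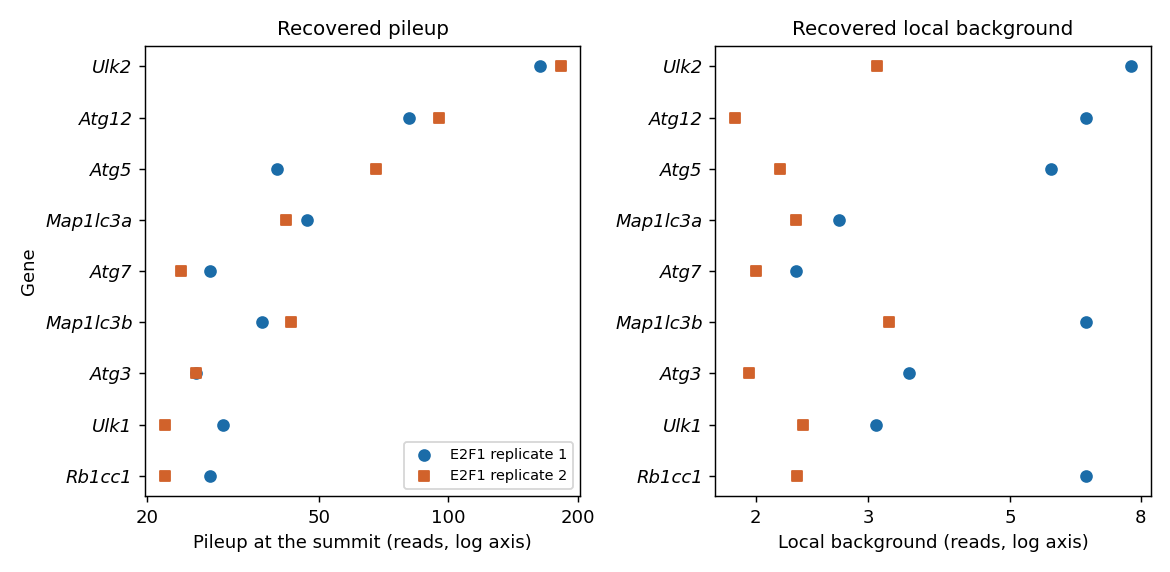
Recovered pileup at the summit (left, reads, log axis) and local background (right, reads, log axis) for the E2F1 peak at each of the 9 genes, with circles for E2F1 replicate 1 and squares for E2F1 replicate 2. The pileups of the replicates stayed within 0.733 to 1.70 times of each other, whereas the background was lower in replicate 2 at every gene.

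A wider list of 49 other autophagy genes, grouped by role, was examined in the same way. Of these, 30 (61.2%) had a consensus E2F1 peak, where all protein-coding genes gave 34.4%, a further 7 had a peak in only 1 E2F1 list, 12 had none, and no EV list had a peak at any of them. The remaining subunits of the ULK complex, Atg13 and Atg101, both had a consensus peak, with mean folds of 8.95 ± 0.775 and 12.8 ± 1.62 (SD, n = 2), so that every subunit gene of that complex examined here had one. In the lipid kinase group 3 of 7 genes (42.9%) had a consensus peak, nearer the 34.4% of all protein-coding genes. Besides Becn1, the catalytic and regulatory subunit genes Pik3c3 and Pik3r4 had no listed peak, Atg14 had one in E2F1 replicate 2 only (fold 5.79) and Ambra1 one in E2F1 replicate 1 only (fold 5.15), while the regulators Nrbf2, Uvrag and Rubcn had consensus peaks. The difference between the groups was not tested.

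Among genes for membrane supply and lipid transfer, 7 of 10 had a consensus peak, including Atg9a, which encodes a membrane protein of the vesicles that seed the autophagosome. Atg9b had no listed peak. In the conjugation group it was 6 of 10, among them Atg10, the conjugating enzyme that acts on ATG12, at 11.3 ± 6.54, and Atg16l1, the partner of the ATG12 and ATG5 conjugate, at 8.30 ± 0.0849 (SD, n = 2). Atg4a, Atg4d and Gabarapl2 had no listed peak. Of the cargo receptors, 5 of 8 had a consensus peak, including the mitophagy receptors Bnip3 and Bnip3l, and Sqstm1, which encodes the receptor p62, had none, as did Calcoco1 and Fundc1. The fusion factors had 3 of 6, without Epg5 and Tecpr1. Of the transcription factors that act on autophagy and lysosome genes, Tfeb, Mitf and Foxo3 had a consensus peak and Tfe3 had no listed peak. Of the Dram genes, Dram1 had a consensus peak and Dram2 a peak in replicate 1 only.

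The highest mean fold in the wider list was that of Atg4b, a protease that processes LC3, with 13.7 and 17.1 in the E2F1 lists. Uvrag, which binds Beclin 1, followed with 13.5 and 14.6. Rubcn, an inhibitor of the lipid kinase complex, had 2 peaks in each list, and the stronger one had folds of 10.3 and 17.3. Those strongest peaks of Rubcn were at different places in the lists. The peak near the upper end of Rubcn had folds of 10.3 and 16.3, and the other 7.22 and 17.3. Neither Atg4b nor Uvrag nor Rubcn reached the folds of Ulk2 (18.8 and 44.7), and the median of the mean folds over the 30 genes was 8.96, close to the 8.54 of the 9 members and below the 11.8 of all genes with a consensus peak. At a score at or above the list median, 6 of the 49 genes (12.2%) kept a consensus peak, Atg101, Atg4b, Foxo3, Rubcn, Uvrag and Wdr45b, a share not above the 17.1% of all protein-coding genes. The Atg4b peak also lay within 1000 bp of Thap4, with its summit outside the span of Atg4b in both lists. Other peaks of the wider list were shared with a neighbouring gene in the same way, among them those of Atg13 with Harbi1, Atg9a with Ankzf1, Atg2b with Gskip, Vmp1 with Ptrh2, Gabarap with Ctdnep1, Nbr1 with Brca1 and Snap29 with Pi4ka, and cannot be given to the autophagy gene alone.

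**Figure D4:**
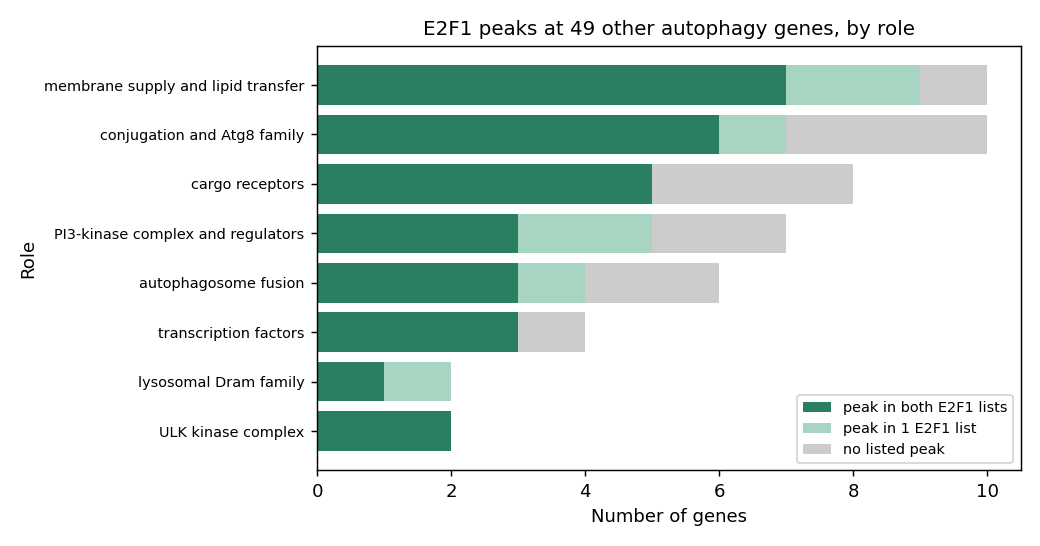
Number of genes (horizontal) of each role (vertical) among the 49 other autophagy genes with a peak in both E2F1 lists (dark green), in 1 E2F1 list (light green) or in none (grey). Peaks in both lists were found at 30 of the 49 genes, at both genes of the ULK complex and at 3 of 7 in the lipid kinase group.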

How the data were processed

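Per the submitters' processing notes, FastQC, Trimmomatic, Bowtie2, MACS2 and ChIPseeker were used with build mm10; versions, the control of each list, the antibody and the thresholds are not given in the sources used here. The deposited lists have 10 columns in narrowPeak layout, 1 list per library. Their score is, by its values, 10 times the −log10 q-value, and the deposited fold is a ratio of pileup to local background at the summit. The deposited −log10 p-value starts just above 10 in each list. The input samples have no file used here.

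Positions came from RefSeq genes of GRCm38.p6, which is the same assembly as mm10. Peaks were joined to gene spans within 1000 bp. Consensus peaks are unions of peaks of both E2F1 lists that overlap by at least 1 bp. Pileup n and background b were solved from fold = (n + 1)/(b + 1) and p as a Poisson upper tail, accepting a whole number within 5% of a step, which succeeded for 99.6% and 98.7% of E2F1 peaks (replicates 1 and 2) and for 87.1% and 99.2% of EV peaks. The genome-wide level of each list is the lowest background solved in it. Counting and solving were tested on simulated data. Python 3.11.15, pandas 2.3.3 and scipy 1.17.1 were used.

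The members and gene lists were chosen with earlier results of these data known. Every member is named; of the wider list, counts by role, genes without a listed peak, and the 3 with the highest mean fold, with further examples chosen after their values were seen. Alternatives were the window, the use of the summit or the gene boundary, a stricter score, other definitions of a consensus peak, leaving out each library and a replicate block.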

Additional observations from a re-analysis of the deposited data

How the results depend on the processing

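There were 38 alternatives over 4 results (the number of members with a peak in E2F1 against EV lists, the members and the wider list with a consensus peak, and the median fold), and those for the group difference all kept its direction. Counting only peaks with a score at or above the list median left 3 members and 6 genes of the wider list with a consensus peak, by construction, since lower peaks were removed. The median taken over recovered pileups, 40 reads, is in another unit than the median fold of 8.54. With no window, a narrower or a wider one, summits, gene boundaries, reciprocal overlap of 50%, centres within 200 bp or either E2F1 list alone, 9 members had a peak, and the wider list had between 24 and 35 genes. The share of all protein-coding genes with such a peak ran from 27.7% with centres within 200 bp to 38.2% in E2F1 replicate 2 alone. At these settings 24 and 32 of the 49 genes had one. In E2F1 replicate 1 alone the share was 36.9%, beside 35 of the 49. The group difference was 3.32 with the replicate block as well, where exact sign flips gave p = 0.5 and 2 pairs allow none smaller. Both libraries of a group had the same number of genes, so the pairing of replicate numbers could not be checked. The group difference fell to 2.16 at the stricter score, rose to 4.25 with a pseudocount of 0.5, and was 3.32 without any single library, on the log2 scale. The median fold was 7.59 in E2F1 replicate 1 alone and 10.4 in E2F1 replicate 2 alone. The genome-wide background was lowest in EV replicate 2 (1.18 reads), and the limit on p keeps weak sites out of all lists.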

Other observations

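Next to Atg7, outside the distance used for assignment, EV replicate 2 listed 21 peaks between 114497114 and 114629610 on chromosome 6. The last of them ended 13517 bp before the span of Atg7. Their folds ran from 2.00 to 4.22, and the local background had a median of 26.1 times the genome-wide level of that list. No annotated gene of the RefSeq table overlaps this stretch. E2F1 replicates 1 and 2 and EV replicate 1 listed 0 peaks in the 200 kb before Atg7. At the Atg7 peak itself the local background was 1.25 and 1.08 times the genome-wide level in E2F1 replicates 1 and 2. The cause of the EV replicate 2 peaks was not tested.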
